A study of Mus musculus with 12 samples.

Results

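Nuclear receptors are transcription factors that bind DNA and, in most members, a small ligand such as retinoic acid, thyroid hormone or a steroid. The genes described here are those whose symbol begins with Nr and a subfamily number from 0 to 6, together with the retinoic acid receptors (Rar), retinoid X receptors (Rxr), thyroid hormone receptors (Thr), estrogen-related receptors (Esrr), ROR genes, Ppar genes and Vdr. Nr1h2, Nr1h3 and Nr4a1 were left out by that rule. It gave 40 of the 54356 genes in the tables. Of the 40, 28 had enough reads to be tested and 12 did not.

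RNA was sequenced from mouse primary neural stem cells, grown with 2 growth factors, epidermal growth factor (EGF) and FGF2. The cells were then moved to neurobasal medium with B-27, which starts neural differentiation. This change of medium was shared by all 4 groups. The groups were wild type at 3 h, wild type at 48 h, Chd5-/- at 3 h and Chd5-/- at 48 h, with 3 libraries in each. The comparison of genotypes asks which genes differ in cells that lack Chd5, a chromatin remodeller, as they differentiate. The labels give no strain, age or allele, give no account of the deleted stretch of Chd5, and name no separate animals or cultures behind the replicate numbers. The p-values therefore measure only the spread between these samples, which may be technical. In bulk RNA, fewer cells of a type and less RNA per cell cannot be told apart.

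Retinoic acid and thyroid hormone receptors pair with retinoid X receptors on DNA. Without ligand they can recruit corepressors, and with ligand they recruit coactivators. Several other members have no known physiological ligand: Nr2e1 (TLX) is known for keeping neural stem cells undifferentiated, and Nr2f1 and Nr2f2 (COUP-TFs) for patterning the forebrain. The ROR proteins activate, and the REV-ERB proteins Nr1d1 and Nr1d2 repress, genes of the circadian clock that share the same DNA element.

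The libraries held 14.11 to 18.71 M reads. Chd5 RNA stood at 3.54 to 4.66 CPM (counts per M reads) in wild type and 5.25 to 7.06 CPM in Chd5-/- labelled libraries at 3 h, and at 5.28 to 7.15 against 2.96 to 5.7 CPM at 48 h, so its level did not mark the genotype. Groups are therefore named by their label. Neural stem cell markers summed to 4235 to 9063 CPM over 10 genes. Vim (967 to 3955 CPM), Fabp7 (526 to 3651), Nes (322 to 1889) and Slc1a3 (142 to 2131) made up most of that sum. Pax6 (3.14 to 44 CPM) and Hes5 (2.96 to 138 CPM) were far lower, and Prom1 stayed under 1 CPM. Microglial markers summed to at most 2.56 CPM. In 3 libraries the values stood apart from the others of their group. Wild-type replicate 1 at 3 h had reads on shorter transcripts, with a read-weighted length of 1805 bases against 3040 to 3304 in the other 11. At 48 h, 10 mitosis genes summed to 1975 CPM in replicate 2 of wild type, and to 1832 CPM in Chd5-/- labelled replicate 2, against 116 to 128 CPM in the other 4. Results on members are given with all 12 libraries and, for most of those that this moves, with the 9 that remain. Those 9 are 3 libraries labelled Chd5-/- at 3 h and 2 of each other group. The 3 left out were chosen by their values, so small p-values with 9 libraries are not a stronger test. Below, 3 values in a row are always replicates 1, 2 and 3. Differences are log2 fold changes with their standard error (SE), from 3 libraries a group unless 9 libraries are named. They passed at a p under 0.05 in edgeR's quasi-likelihood test, adjusted by Benjamini-Hochberg over all tested genes.

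Differences between genotypes passed the test in Rara, Rarg, Rora and Esrrb, and Rarb is known for autoregulation by retinoic acid. To show the DNA next to these genes, the 250 bases before a transcription start are printed 5′ to 3′ on the gene's strand, from the RefSeq table for GRCm38.p6. The windows lie at the start of the most read transcript of Rora, Rarg and Esrrb and, for Rara, just before the start of the transcript Rara-204. For Rarb, 30 bases are shown, inside the transcribed 5′ end of Rarb-201 by the annotation. Capitals mark matches to the motifs searched.
Rara, chr11:98937446-98937695, plus strand: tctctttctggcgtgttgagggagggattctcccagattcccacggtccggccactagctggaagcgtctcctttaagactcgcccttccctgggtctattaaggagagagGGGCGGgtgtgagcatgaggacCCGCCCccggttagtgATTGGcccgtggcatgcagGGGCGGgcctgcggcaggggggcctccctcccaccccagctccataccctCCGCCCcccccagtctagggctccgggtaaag
Rarg, chr15:102246501-102246750, minus strand: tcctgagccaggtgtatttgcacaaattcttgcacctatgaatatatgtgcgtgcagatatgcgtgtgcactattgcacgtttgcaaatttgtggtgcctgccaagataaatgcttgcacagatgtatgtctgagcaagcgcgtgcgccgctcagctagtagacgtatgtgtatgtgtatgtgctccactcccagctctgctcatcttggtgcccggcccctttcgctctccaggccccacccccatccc
Rora, chr9:68653536-68653785, plus strand: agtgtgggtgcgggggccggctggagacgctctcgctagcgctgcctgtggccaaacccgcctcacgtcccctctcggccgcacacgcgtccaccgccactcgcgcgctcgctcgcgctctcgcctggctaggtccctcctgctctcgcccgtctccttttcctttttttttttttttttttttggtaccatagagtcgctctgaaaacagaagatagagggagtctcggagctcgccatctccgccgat
Esrrb, chr12:86421394-86421643, plus strand: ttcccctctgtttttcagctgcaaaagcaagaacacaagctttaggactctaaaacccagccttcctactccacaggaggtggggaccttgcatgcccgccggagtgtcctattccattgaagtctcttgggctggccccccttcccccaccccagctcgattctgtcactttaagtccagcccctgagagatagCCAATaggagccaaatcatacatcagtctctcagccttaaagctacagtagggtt
Rarb, chr14:16575506-16575535, minus strand: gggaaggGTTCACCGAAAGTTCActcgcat

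The motifs were searched on both strands in all 32817 windows of the table, of which 54 belonged to 36 of the 40 members. In Rarb the capitals mark a direct repeat of GTTCA with 6 bases between its copies, known as the retinoic acid response element of this gene, at 16575513 to 16575528. It occurred in 0.067% of all windows and in the window of no other member. The direct repeat of the half-site AGGTCA with 5 bases between occurred in 3 of all windows and in 0 of the members', and AGGTCA alone in 14% of all windows and in 11 of the members'. In Rara the capitals mark 4 GC boxes (GGGCGG, in 32.7% of all windows) and a CCAAT match (in 33.8%), and in Esrrb a CCAAT match 55 bases before the start. None of the searched motifs, which also included CACGTG and TATAAA, lay in the printed windows of Rora and Rarg. The Rora window had 26 CpG and 61.2% GC and the Esrrb window 3 CpG and 52% GC, against a median of 6 CpG and 52.4% GC over all windows. A match is a description of letters only.

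Levels differed widely between members. As CPM per kb of transcript length, a scale that can be compared between genes, Thra (thyroid hormone receptor alpha) had the highest median over the 12 libraries, 79 CPM per kb with a range of 38 to 237. Next came Nr2f6 at 29.8, Nr2f1 at 29.3, Rxrb at 26.5 and Esrra at 22.9 CPM per kb, whose ranges overlap. Esrrb was the lowest of the tested members at 0.222 CPM per kb. TPM gave another order at the top, with Nr2f6 at a median of 105 against 51 for Thra, and 426 Nr2f6 reads were assigned to a transcript of 235 bases. Among partners, the median was 26.5 CPM per kb for Rxrb and 7 for Rxra, while Rxrg had 3 reads in all 12 libraries together.

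**Figure D1:**
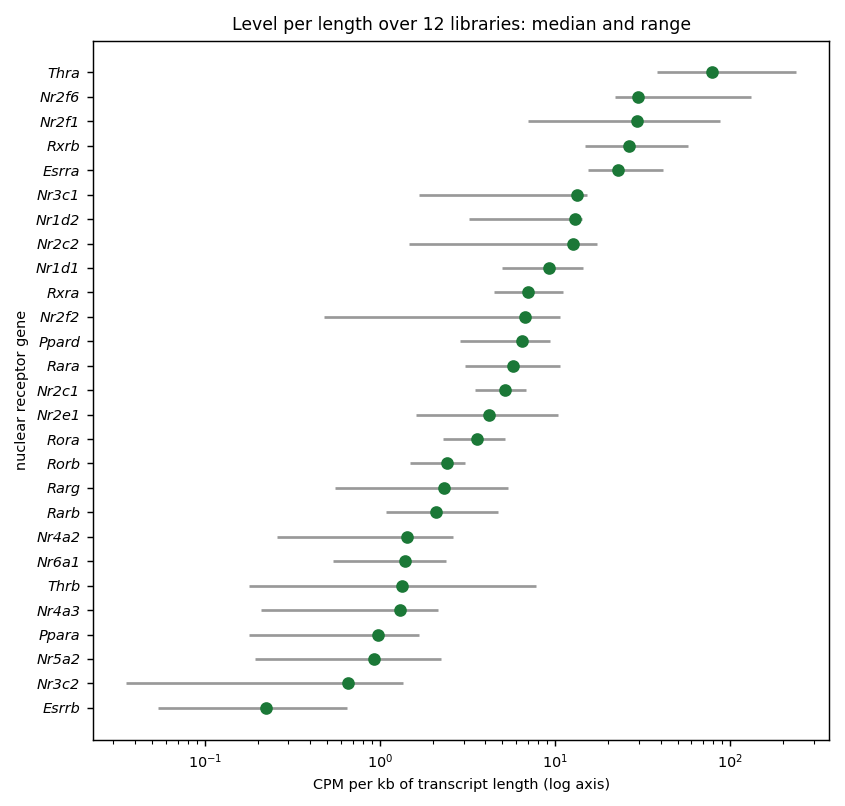
Level of 27 of the 28 tested nuclear receptor genes on a log axis, in CPM per kb of transcript length. Points are the median and lines the lowest to highest of the 12 libraries. Thra lies highest and Esrrb lowest.

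The 12 members that were not tested were Esrrg, Pparg, Nr2e3, Nr1i3, Vdr, Nr1h4, Nr0b1, Nr0b2, Nr5a1, Nr1i2, Nr1h5 and Rxrg. Their highest value in any library was 0.405 CPM, in Nr1i3 and Nr0b2. Nr1i2, the xenobiotic receptor PXR, had 0 reads in all libraries, which allows a level of up to 0.0156 CPM over the 12 libraries, for counting error only. Nr0b2 (SHP), which has no DNA-binding domain, had 12 of its 13 reads in wild type at 3 h. Vdr, the vitamin D receptor, had 24 reads in all.

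At 3 h, 4 of the 28 tested members differed between genotypes. Esrrb and Rora were higher and Rara and Rarg lower in Chd5-/- labelled libraries. In this comparison 6.71% of all tested genes passed, 3.24% higher and 3.48% lower. Wild-type and Chd5-/- libraries did not overlap for 20 members, 12 higher and 8 lower, where 45.0% of all genes did not overlap (23.9% higher and 21.1% lower). Over the 28 members the median log2 fold change was 0.32, against -0.02 over all genes, and with 9 libraries it was 0.07 against -0.0032. With 9 libraries 21 members passed, 10 higher and 11 lower, where 52.5% of all genes passed (27.2% higher and 25.3% lower), and the 4 kept their direction.

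These counts moved with single libraries, where 2.52% to 9.78% of all genes passed with 1 library left out. Without wild-type replicate 1 at 3 h, 7 members passed. Without replicate 1, 2 or 3 labelled Chd5-/- at 3 h, the count was 1, 0 and 0. Without replicate 1 or 3 of either genotype at 48 h it was 2. Deviations of same-numbered libraries of a time point correlated, although different numbers were not compared. The fit was therefore repeated with replicate blocks within each time. Then 5 members passed, against 8.63% of all genes, among them Esrrb, Rora, Rara and Thra (-1.08, adjusted p = 0.035), while Rarg did not (adjusted p = 0.0768). In a blocked fit of the 6 libraries at 3 h alone 0 members and 0% of all genes passed, and Esrrb had the smallest adjusted p, 0.0938.

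Other measures moved with genotype at 3 h. Markers of fibroblasts, pericytes and smooth muscle summed to 573 to 606 CPM in Chd5-/- labelled libraries, against 5.8 to 15.6 CPM in the other 9. Acta2, a smooth muscle actin gene, made up 566 to 598 CPM of that sum, and Col1a2, Pdgfrb, Rgs5, Dcn and Lum stayed under 1 CPM in every library. Over 7 astrocyte markers the sum was 584 to 612 CPM in Chd5-/- labelled libraries and 1308 to 1616 CPM in wild type. Sparcl1 carried this gap, at 8.71 to 10.7 CPM against 449.9, 1150 and 1131 CPM in wild type, and without it the sum was 575 to 603 CPM against 858, 466 and 445 CPM. Over 8 neuron markers the sum was 1196 to 1305 CPM in Chd5-/- labelled libraries and 235 to 642 CPM in wild type. Map2 made up 1095 to 1212 and 114 to 489.9 CPM of it, Tubb3 lay the other way at 89.9 to 98.4 against 119 to 157 CPM, Elavl4 was at 1.88 to 2.46 against 0.203 to 0.832 CPM, and the other 5 stayed under 1 CPM at 3 h. The part of these differences in the results on nuclear receptors was not tested.

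**Figure D2:**
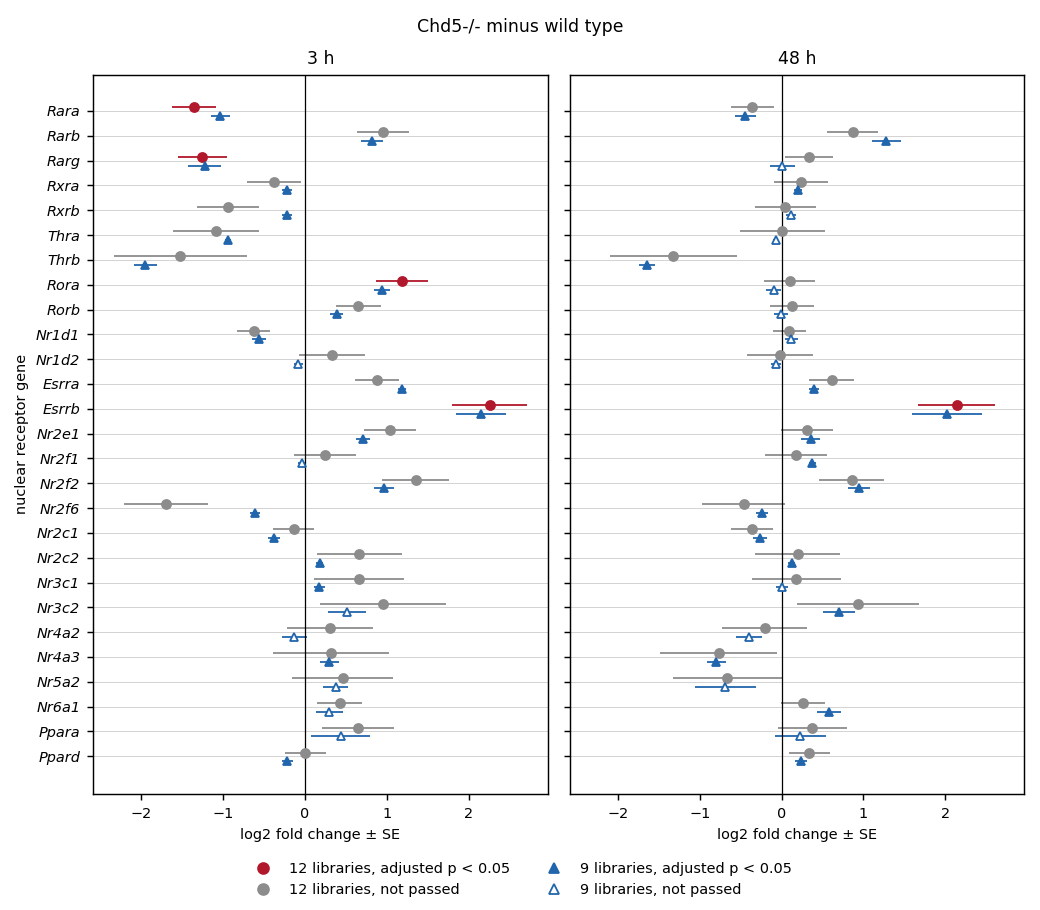
Log2 fold change of 27 of the 28 tested members, Chd5-/- labelled libraries minus wild type, at 3 h (left) and 48 h (right), with bars of 1 standard error. Red and grey circles are from 12 libraries and blue triangles from the 9 without the libraries that stood apart. At 3 h Rara and Rarg lie left and Rora and Esrrb right of 0, and at 48 h Esrrb alone is red.

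At 48 h, 1 of the 28 members differed between genotypes, Esrrb, which was higher in Chd5-/- labelled libraries. Of all genes, 2.74% passed, 1.53% higher and 1.21% lower. The genotypes did not overlap for 8 members, 6 higher and 2 lower, where 23.2% of all genes did not overlap (12.3% higher and 10.9% lower). The median log2 fold change was 0.15 over the members and -0.02 over all genes, and with 9 libraries 0.06 and 0.02. With 9 libraries 17 passed, 11 higher and 6 lower, against 47.2% of all genes (25.6% higher and 21.6% lower). With blocks within each time 1 member passed, Esrrb, against 3.13% of all genes. In a blocked fit of the 6 libraries at 48 h, 2 passed, Esrrb (adjusted p = 0.0304) and Nr2f2 (0.85, adjusted p = 0.0454), against 8.82% of all genes. Without wild-type replicate 1 at 3 h 2 members passed. In 10 of the other fits with 1 library left out the count was 0, and it was 1 without wild-type replicate 2 at 48 h. Of all genes 1.1% to 8.69% passed in these fits.

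Between 3 h and 48 h, 6 members passed in wild type and 10 in Chd5-/- labelled libraries. In wild type all 6 rose, where 22.9% of all genes passed (12.7% higher and 10.1% lower), among them Rora, Nr6a1, Rarg, Nr2f1 and Ppara. In Chd5-/- labelled libraries 8 rose and 2 fell, where 22.1% of all genes passed (14.1% higher and 8.03% lower). Rarg, Nr1d1, Thra, Nr6a1, Nr2f1, Ppard and Thrb were among those that rose, and Nr5a2 and Nr2e1 fell. The 3 h and 48 h libraries did not overlap for 11 members in wild type, 8 higher and 3 lower, where 37.7% of all genes did not overlap (20.9% higher and 16.8% lower). In Chd5-/- labelled libraries they did not overlap for 21, 15 higher and 6 lower, where 64.6% of all genes did not (32.2% higher and 32.4% lower). Median log2 fold changes of the members were 0.53 and 0.37, against 0.09 and 0.04 over all genes. With 9 libraries 24 members passed in wild type, 17 higher and 7 lower, against 76.0% of all genes (37.6% higher and 38.4% lower). In the other genotype 21 passed, 15 higher and 6 lower, against 79.0% of all genes (38.9% higher and 40.1% lower). A fit of the 6 wild-type libraries alone called 0 members and 0% of all genes, and a fit of the 6 labelled Chd5-/- alone called 17 members and 53.4% of all genes.

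Other measures moved with time. At 48 h the astrocyte markers summed to 3751 to 4613 CPM in wild type and 1952 to 5154 CPM in Chd5-/- labelled libraries. All of these lay above every library at 3 h, with replicate 2 of each genotype lowest. Without Sparcl1 the wild-type sums were 2370, 466 and 2370 CPM, against 858, 466 and 445 CPM at 3 h. Wild-type replicate 2 then lay within the 3 h range of its genotype. In Chd5-/- labelled libraries the sums without Sparcl1 were 3641, 1305 and 3632 CPM, against 587, 575 and 603 CPM at 3 h. The 10 mitosis genes summed to 2195 to 2997 CPM in all 6 libraries at 3 h, against 116 to 128 CPM in replicates 1 and 3 at 48 h. The part of these differences in the changes of nuclear receptors with time was not tested.

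Single libraries moved the counts with time too, where 8.76% to 32.4% of all genes passed in wild type and 10.3% to 43.5% in Chd5-/- labelled libraries. In wild type, 2 members passed without replicate 1 or replicate 3 at 48 h, and other omissions gave 4 to 9. In Chd5-/- labelled libraries, the count was 16 without wild-type replicate 1 at 3 h. It was 4, 5 and 4 without replicates 1, 2 and 3 labelled Chd5-/- at 3 h, and 4 and 3 without replicates 1 and 3 labelled Chd5-/- at 48 h. For 15 of the 28 members, replicate 2 at 48 h lay below replicates 1 and 3 in both genotypes, as for 34.9% of all genes. It lay above them for 5 members, as for 34.0% of all genes.

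**Figure D3:**
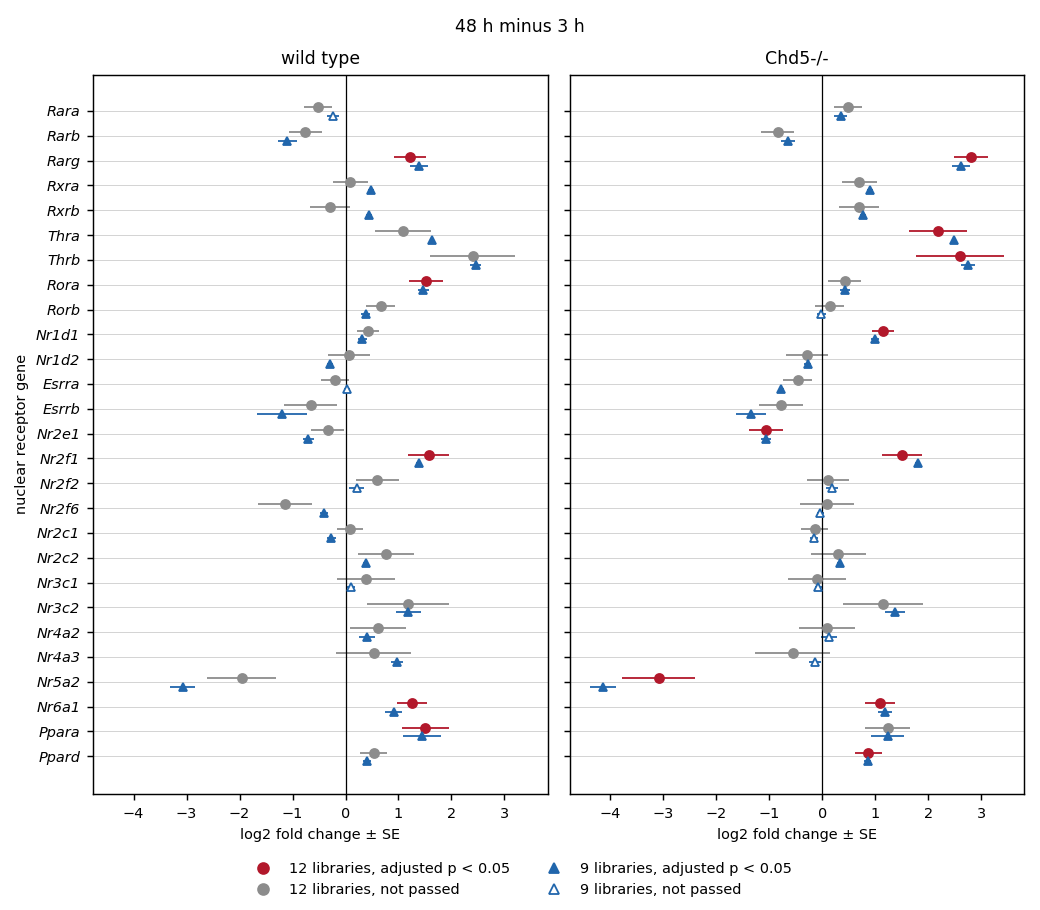
Log2 fold change of 27 of the 28 tested members, 48 h minus 3 h, in wild type (left) and in Chd5-/- labelled libraries (right), with bars of 1 standard error. Circles are from 12 libraries (red where the test was passed) and triangles from 9. Rarg, Nr2f1 and Nr6a1 are red to the right of 0 in both genotypes.

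For the interaction, which asks whether the change with time differed between genotypes, 0 of 28 members passed in edgeR with 12 libraries, where 0.231% of all genes passed (0.137% higher and 0.0935% lower). At an unadjusted p under 0.05 there were 4, a count for which no share of all genes was taken. DESeq2 called 1, against 2.4% of all genes, and limma-voom 0, against 0.243%. With 9 libraries 14 passed, 10 higher and 4 lower, where 40.4% of all genes passed (19.3% higher and 21.1% lower).

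**Figure D4:**
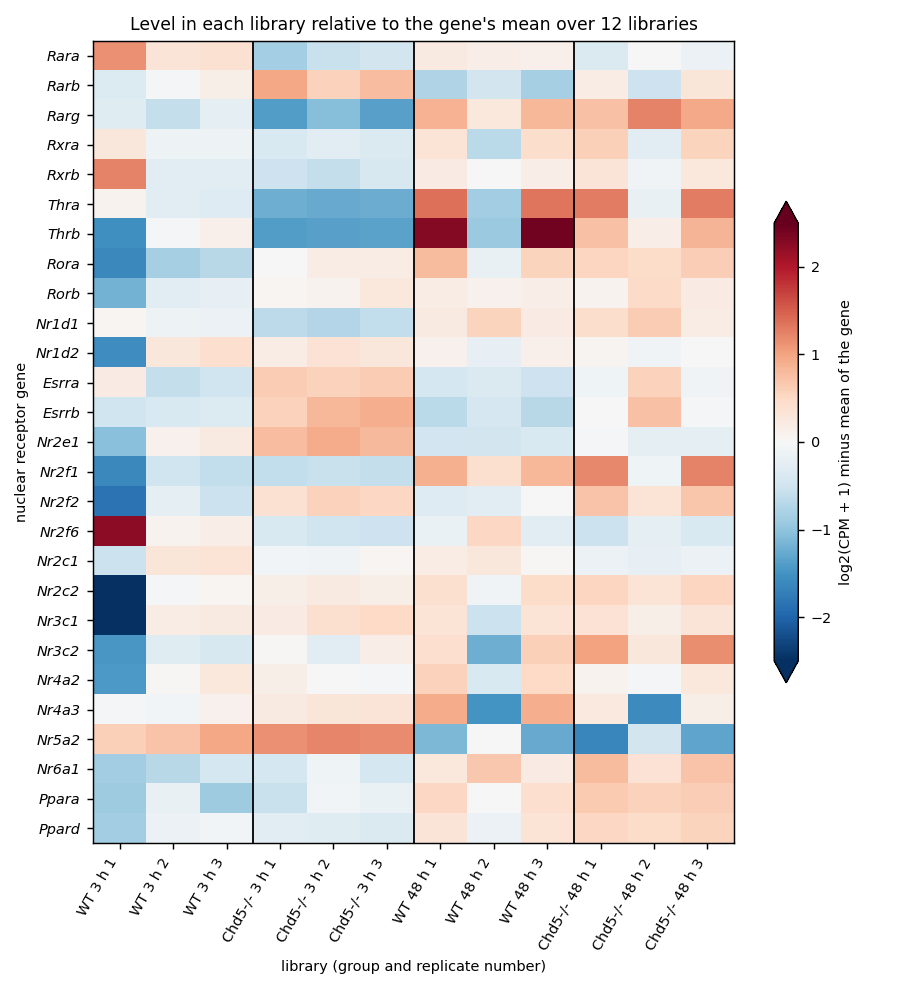
Level of 27 of the 28 tested members (rows) in each of the 12 libraries (columns), as log2(CPM + 1) minus the mean of the gene over the libraries. Red is above and blue below that mean. Wild-type replicate 1 at 3 h and replicate 2 at 48 h differ in colour from their groups, as for Nr2f6 and Thra.

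The retinoic acid receptors moved in different directions. Rara, which encodes RARα (chromosome 11, 98927818 to 98974942, GRCm38), was at 33.4, 18.6 and 19.5 CPM in wild type at 3 h against 7.71, 9.72 and 10.5 CPM in Chd5-/- labelled libraries. All 3 of the latter lay below all 3 wild-type libraries, and wild-type replicate 1 was the highest. The difference was a log2 fold change of -1.36 ± 0.27 SE with an adjusted p of 0.0136 and, with 9 libraries, -1.03 ± 0.11 SE with an adjusted p of 5.37e-06. It no longer passed without Chd5-/- labelled replicate 1, 2 or 3 at 3 h (adjusted p = 0.0853, 0.0665 and 0.0538), or in the 6 libraries at 3 h alone (adjusted p = 0.0598). At 48 h Rara was at 17.3, 16.6 and 16.1 CPM in wild type against 11.1, 14.7 and 13.1 CPM in Chd5-/- labelled libraries. These groups did not overlap either, but the difference of -0.36 ± 0.26 SE with an adjusted p of 0.796 did not pass.

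Over time, Rara lay in opposite directions in wild type and in Chd5-/- labelled libraries. All wild-type libraries at 48 h lay below those at 3 h (-0.52 ± 0.26 SE with an adjusted p of 0.175), and all Chd5-/- labelled libraries at 48 h lay above those at 3 h (0.48 ± 0.27 SE with an adjusted p of 0.221). Neither change passed, nor did the interaction (1.00 ± 0.37 SE with an adjusted p of 0.407) with 12 libraries, while with 9 libraries the interaction did (0.59 ± 0.17 SE with an adjusted p of 0.0147). Reads of Rara were spread over 3 coding transcripts with different starts, at 48.1% for Rara-207, 23.9% for Rara-203 and 23.6% for Rara-204. In wild-type replicate 1 at 3 h, 323 of 330 reads were assigned to Rara-207.

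Rarg, which encodes RARγ (chromosome 15, 102234938 to 102257517), was at 4.25, 3.3 and 4.55 CPM in wild type at 3 h against 1.45, 2.08 and 1.54 CPM in Chd5-/- labelled libraries. The groups did not overlap, and the difference was -1.25 ± 0.30 SE with an adjusted p of 0.0336. That call held without wild-type replicate 1 or 2 at 3 h or replicate 2 of either genotype at 48 h, and was lost without any other library (adjusted p = 0.0545 to 0.155). By 48 h Rarg measured 10.9, 6.81 and 10.5 CPM in wild type against 9.78, 14.4 and 11.5 CPM in Chd5-/- labelled libraries. Those groups overlapped.

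Rarg rose with time in both genotypes. The change was 1.22 ± 0.30 SE with an adjusted p of 0.0173 in wild type, where it was lost without replicate 2 at 3 h (adjusted p = 0.0506) or replicates 1 or 3 at 48 h (0.0697 and 0.0665). In Chd5-/- labelled libraries it was 2.81 ± 0.31 SE with an adjusted p of 0.000422, and it passed in all 12 fits with 1 library left out. The interaction was 1.59 ± 0.42 SE with an adjusted p of 0.185 with 12 and 1.23 ± 0.25 SE with an adjusted p of 0.00171 with 9 libraries. Of the Rarg reads, 90.3% lay on the coding transcript Rarg-202, whose window is printed above.

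Rarb, which encodes RARβ, carries the repeat shown above. It measured 4.56, 5.86 and 6.83 CPM in wild type at 3 h against 12.9, 9.6 and 11.1 CPM in Chd5-/- labelled libraries. At 48 h the values were 3.18, 4.11 and 2.95 and 7, 3.94 and 7.76 CPM. At 3 h wild type was lower than each of these libraries, the reverse of Rara and Rarg, and at 48 h the groups overlapped in replicate 2. With 12 libraries neither difference passed (0.96 ± 0.31 SE with an adjusted p of 0.102 at 3 h and 0.87 ± 0.32 SE with an adjusted p of 0.26 at 48 h). With 9 libraries both did (0.82 ± 0.14 SE with an adjusted p of 0.000202 and 1.28 ± 0.18 SE with an adjusted p of 5.45e-05). Exons of Rarb overlap Top2b and Gm48162, and whether reads were assigned by strand is not given in the sources used here, so its level is uncertain.

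Of the retinoid X receptors, Rxra was at 43.9, 32.8 and 32.5 CPM in wild type against 27.2, 29.4 and 27.5 CPM in Chd5-/- labelled libraries at 3 h, and at 45.4, 22 and 49 and 54.2, 29.5 and 53.2 CPM at 48 h. Rxrb was at 122, 41.4 and 41.3 and 35.2, 33.1 and 38.1 CPM at 3 h, and at 58.4, 50.7 and 57.5 and 63.3, 47.7 and 61.1 CPM at 48 h. At 3 h both genes lay lower in every Chd5-/- labelled library, by -0.37 ± 0.33 SE with an adjusted p of 0.522 and -0.94 ± 0.38 SE with an adjusted p of 0.166, and neither passed. Rxrb was highest in wild-type replicate 1 at 3 h, and with 9 libraries its difference was -0.22 ± 0.06 SE with an adjusted p of 0.00577.

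The thyroid hormone receptors differed between replicates 1 and 3 and replicate 2 at 48 h. Thra (chromosome 11, 98740638 to 98769006) measured 189.9, 146 and 144 CPM in wild type against 76.1, 74.1 and 75.3 CPM in Chd5-/- labelled libraries at 3 h, without overlap (-1.09 ± 0.53 SE with an adjusted p of 0.239, not passed; -0.94 ± 0.03 SE with an adjusted p of 9.69e-11 with 9 libraries). At 48 h it measured 468, 97.5 and 454 CPM in wild type against 434, 158 and 434 CPM in Chd5-/- labelled libraries. Replicates 1 and 3 of both genotypes lay far above 3 h, whereas wild-type replicate 2 lay below every wild-type library at 3 h. The rise with time passed in Chd5-/- labelled libraries (2.19 ± 0.55 SE with an adjusted p of 0.0169) and not in wild type (1.09 ± 0.53 SE with an adjusted p of 0.154; 1.62 ± 0.03 SE with an adjusted p of 1.14e-13 with 9 libraries). It was lost without any of the 3 Chd5-/- labelled libraries at 3 h or replicates 1 or 3 at 48 h (adjusted p = 0.0612 to 0.0671).

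Thra-201, the longest coding transcript here at 492 residues, held 70.6% of the Thra reads. Thra-203 held 21.2% and Thra-202, with 410 residues, 7.34%. The last exons of Thra and Nr1d1 overlap on opposite strands, so the split of reads between both genes is uncertain.

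Thrb (chromosome 14, 17660261 to 18038090) was far lower than Thra per length, at a median of 1.33 against 79 CPM per kb. It measured 1.11, 5.01 and 5.72 CPM in wild type against 1.34, 1.39 and 1.42 CPM in Chd5-/- labelled libraries at 3 h, with wild-type replicate 1 below all 3 of the latter. At 48 h the values were 29.3, 2.23 and 31.6 and 9.23, 5.88 and 10.1 CPM. The rise in Chd5-/- labelled libraries was 2.59 ± 0.83 SE with an adjusted p of 0.0468, and the call held only without wild-type replicate 1 at 3 h or replicate 2 of either genotype at 48 h (0.0567 to 0.138 without each of the others). With 9 libraries Thrb was lower in Chd5-/- labelled libraries at 3 h (-1.95 ± 0.14 SE with an adjusted p of 1.15e-07) and at 48 h (-1.64 ± 0.09 SE with an adjusted p of 1.7e-08); with 12 neither passed (-1.52 ± 0.81 SE with an adjusted p of 0.281 and -1.33 ± 0.78 SE with an adjusted p of 0.653).

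**Figure D5:**
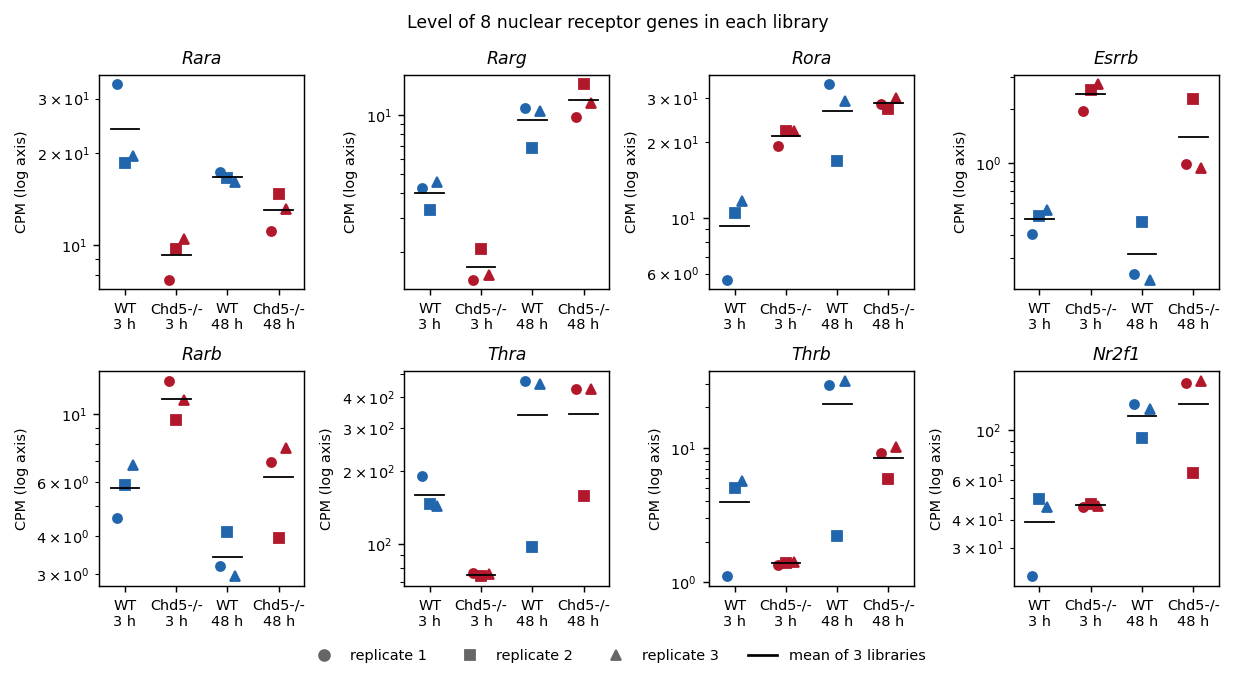
CPM of 8 nuclear receptor genes in each library, on log axes that differ between panels. Blue is wild type and red Chd5-/-, shapes are replicates 1 to 3, and lines are the mean of 3 libraries. Rara and Rarg lie lower and Rora and Esrrb higher in the red group at 3 h, and replicate 2 at 48 h (squares) lies apart for Thra, Thrb and Nr2f1.

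ROR genes encode activators that bind as monomers. Rora (chromosome 9, 68653786 to 69388246) was at 5.67, 10.4 and 11.7 CPM in wild type against 19.3, 22.1 and 22.2 CPM in Chd5-/- labelled libraries at 3 h, without overlap. The difference was 1.19 ± 0.32 SE with an adjusted p of 0.0484. It held without wild-type replicate 1 at 3 h or wild-type replicate 2 at 48 h and was lost without any other library (adjusted p = 0.0522 to 0.163). With an offset for transcript length it was 0.64 (adjusted p = 0.204). At 48 h Rora was at 34.1, 16.8 and 29.1 CPM in wild type against 28.4, 27.2 and 30.2 CPM in Chd5-/- labelled libraries, which overlapped. In wild type the rise was 1.52 ± 0.32 SE with an adjusted p of 0.00979 and passed in all 12 fits with 1 library left out. In Chd5-/- labelled libraries the change was 0.43 ± 0.31 SE with an adjusted p of 0.355, and the interaction was -1.09 ± 0.44 SE with an adjusted p of 0.451 with 12 and -1.04 ± 0.14 SE with an adjusted p of 5.31e-05 with 9 libraries. In wild-type replicate 1 at 3 h, 48 of 56 Rora reads were assigned to a noncoding transcript of 1422 bases, against 38 of 183 and 36.6 of 210 in replicates 2 and 3. Exons of Rora overlap Gm15511 on the opposite strand, so its level is uncertain.

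Rorb, a relative of Rora, was at 7.8 to 16.2 CPM in wild type at 3 h and at 19.5 to 26.7 CPM in the other 9 libraries; no comparison of it passed with 12 libraries.

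Nr1d1, which encodes the clock repressor REV-ERBα, was at 23.7, 20.9 and 20.8 CPM in wild type against 14.2, 13.5 and 14.6 CPM in Chd5-/- labelled libraries at 3 h, and at 27, 34.4 and 26.6 and 31.5, 36.4 and 26.2 CPM at 48 h. The 3 h groups did not overlap, and the 48 h groups did. It rose with time in Chd5-/- labelled libraries (1.15 ± 0.21 SE with an adjusted p of 0.00391), a call kept in all 22 alternatives, while in wild type the change was 0.43 ± 0.20 SE with an adjusted p of 0.147. Its relative Nr1d2 lay between 37.8 and 59.1 CPM in 11 libraries and at 14.4 CPM in wild-type replicate 1 at 3 h, and passed no comparison with 12 libraries.

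The estrogen-related receptors bind no estrogen and are known for control of mitochondrial genes and, for Esrrb, for pluripotent stem cells. Esrrb (chromosome 12, 86361117 to 86521628) had few reads, 4 to 10 per wild-type library and 15 to 48 per Chd5-/- labelled library. At 3 h it measured 0.405, 0.512 and 0.555 CPM in wild type against 1.96, 2.53 and 2.73 CPM in Chd5-/- labelled libraries. At 48 h it measured 0.244, 0.472 and 0.227 and 0.991, 2.27 and 0.946 CPM. All 6 Chd5-/- labelled libraries lay above all 6 of wild type. The difference was 2.26 ± 0.46 SE with an adjusted p of 0.0153 at 3 h and 2.14 ± 0.48 SE with an adjusted p of 0.0376 at 48 h, and 2.16 ± 0.30 SE with an adjusted p of 5.24e-05 and 2.02 ± 0.43 SE with an adjusted p of 0.00178 with 9 libraries.

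At 3 h the call of Esrrb was lost without replicates 2 or 3 labelled Chd5-/- (adjusted p = 0.0642 and 0.0701), and at 48 h it held without wild-type replicate 1 at 3 h or wild-type replicate 2 at 48 h and was lost without any other library (0.0616 to 0.182). With blocks within each time both passed (adjusted p = 0.00922 and 0.0273). Reads lay on Esrrb-203 (93.9%), except 7.4 and 6.3 reads on Esrrb-201 in wild-type replicates 2 and 3 at 3 h. Changes with time were -0.66 ± 0.49 SE with an adjusted p of 0.351 in wild type and -0.78 ± 0.42 SE with an adjusted p of 0.216 in Chd5-/- labelled libraries.

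Esrra was at 49.6, 28.1 and 29.9 CPM in wild type against 67, 64.2 and 66.8 CPM in Chd5-/- labelled libraries at 3 h, and at 31.3, 33 and 29.6 and 39.4, 64 and 40.1 CPM at 48 h. Like Esrrb, it did not overlap between genotypes at either time, and it was higher in Chd5-/- labelled libraries. Neither difference passed with 12 libraries (0.88 ± 0.27 SE with an adjusted p of 0.0821 and 0.61 ± 0.27 SE with an adjusted p of 0.413), and both did with 9 (1.19 ± 0.05 SE with an adjusted p of 3.83e-10 and 0.40 ± 0.06 SE with an adjusted p of 8.1e-05). At 48 h replicate 2 labelled Chd5-/- was the highest. Exons of Esrra overlap Trmt112 on the opposite strand, so its level is uncertain.

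Among receptors of neural progenitors, Nr2e1 was at 5.27, 12.9 and 14 CPM in wild type against 21, 23.5 and 21.7 CPM in Chd5-/- labelled libraries at 3 h, and at 8.24, 8.43 and 8.86 and 11.7, 10.01 and 9.97 CPM at 48 h. Libraries labelled Chd5-/- lay higher at both times without overlap, and neither difference passed (1.04 ± 0.32 SE with an adjusted p of 0.0821 and 0.31 ± 0.32 SE with an adjusted p of 0.906; 0.71 ± 0.09 SE with an adjusted p of 1.41e-05 and 0.35 ± 0.11 SE with an adjusted p of 0.0209 with 9 libraries). It fell with time in Chd5-/- labelled libraries (-1.06 ± 0.32 SE with an adjusted p of 0.0355), a call that held without each wild-type library at 3 h or wild-type replicate 2 at 48 h and was lost without each other library (0.0534 to 0.122). In wild type the change was -0.34 ± 0.32 SE with an adjusted p of 0.46.

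Nr2f1 was at 22.4, 49.4 and 45.6 CPM in wild type against 45.5, 47 and 46.2 CPM in Chd5-/- labelled libraries at 3 h, which overlapped. At 48 h it was at 131, 92.4 and 125 and 163, 64.5 and 167 CPM, above every 3 h library of its genotype. It rose with time by 1.57 ± 0.39 SE with an adjusted p of 0.0183 in wild type and 1.51 ± 0.39 SE with an adjusted p of 0.0189 in Chd5-/- labelled libraries. In wild type the call was lost without replicates 1 or 3 at 48 h (0.0642 and 0.0603), and in the other genotype without any library at 3 h or replicates 1 or 3 at 48 h (0.0712 to 0.0807). Nr2f2 was at 2.03, 8.2 and 6.49 against 13.2, 15.2 and 14.7 CPM at 3 h and 7.69, 8.02 and 9.83 against 17, 12.8 and 16.6 CPM at 48 h. The groups overlapped at neither time, and the differences of 1.35 ± 0.40 SE with an adjusted p of 0.0749 and 0.86 ± 0.40 SE with an adjusted p of 0.459 did not pass with 12 libraries but did with 9 (0.97 ± 0.12 SE with an adjusted p of 2.19e-05 and 0.95 ± 0.13 SE with an adjusted p of 5.56e-05). Both genes overlap antisense genes (A830082K12Rik and B130024G19Rik), so their levels are uncertain.

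Nr5a2 and Nr6a1 are orphan receptors known from embryonic stem cells and germ cells. Nr5a2 (chromosome 1, 136842571 to 136960448) was at 5.17, 5.64 and 6.94 CPM in wild type against 7.94, 8.4 and 8.14 CPM in Chd5-/- labelled libraries at 3 h, and at 0.855, 3.03 and 0.682 and 0.31, 1.94 and 0.631 CPM at 48 h. All 48 h libraries lay below all 3 h libraries of their genotype, with replicate 2 highest at 48 h. The fall was -3.09 ± 0.69 SE with an adjusted p of 0.0103 in Chd5-/- labelled libraries, lost without replicate 3 at 48 h (adjusted p = 0.0516), and -1.96 ± 0.66 SE with an adjusted p of 0.0526 in wild type, which did not pass. Nr6a1 was at 2.84, 3.36 and 4.16 and 4.19, 5.56 and 4.21 CPM at 3 h and 7.45, 10.2 and 7.16 and 11.1, 8.08 and 10.5 CPM at 48 h. It rose by 1.25 ± 0.28 SE with an adjusted p of 0.0126 in wild type and 1.09 ± 0.28 SE with an adjusted p of 0.0185 in Chd5-/- labelled libraries. The first call passed in all 12 fits with 1 library left out, and the second was lost without replicates 1 or 3 of its genotype at 3 h (0.0871 and 0.0865) or at 48 h (0.0801 and 0.0716).

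PPARs are lipid sensors. Ppara was at 0.608, 1.59 and 0.61 CPM in wild type against 1.01, 1.83 and 1.65 CPM in Chd5-/- labelled libraries at 3 h, and at 3.24, 1.96 and 2.95 and 3.65, 3.4 and 3.53 CPM at 48 h. Its rise passed in wild type (1.51 ± 0.44 SE with an adjusted p of 0.0336) but not in Chd5-/- labelled libraries (1.24 ± 0.43 SE with an adjusted p of 0.0615); the interaction was -0.27 ± 0.60 SE with an adjusted p of 0.874. The call held without wild-type replicate 2 at 3 h, replicate 1 labelled Chd5-/- at 3 h or replicate 2 of either genotype at 48 h, and was lost without each other library (0.0512 to 0.108). Ppard was at 9.42, 16.2 and 17.2 and 14.8, 14.4 and 13.9 CPM at 3 h and 22.7, 16.3 and 23.1 and 26.3, 25.2 and 27.2 CPM at 48 h. Its rise passed in Chd5-/- labelled libraries (0.87 ± 0.25 SE with an adjusted p of 0.0328) and not in wild type (0.53 ± 0.25 SE with an adjusted p of 0.147). That call held without each wild-type library at 3 h or replicate 2 of either genotype at 48 h and was lost without each other library (0.0516 to 0.12).

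Of the steroid receptors, Nr3c1, the glucocorticoid receptor, lay between 43.7 and 91.2 CPM in 11 libraries and at 10.5 CPM in wild-type replicate 1 at 3 h. Nr3c2, the mineralocorticoid receptor, lay between 0.203 and 6.31 CPM. With 12 libraries neither passed any comparison. Nr2c2 (TR4) was likewise at 10.6 CPM in that library and 69.4 to 107 CPM in the others, while Nr2f6 stood at 203 CPM there and 28.8 to 61.4 CPM elsewhere. Nr2c1 (TR2) ranged from 11.7 to 22.3 CPM. None of these 3 passed with 12 libraries. Exons of Nr3c2, Nr2c2 and Nr2f6 overlap genes on the opposite strand (Gm10649, Mrps25 and Ocel1 among them), so their levels are uncertain. The orphan receptors Nr4a2 and Nr4a3, whose genes respond quickly to stimuli, ranged from 0.81 to 6.23 and from 1.2 to 11.6 CPM. Replicate 2 at 48 h was the lowest for Nr4a3, at 1.35 CPM (wild type) and 1.2 CPM (Chd5-/-), against 6.31 to 11.6 CPM in replicates 1 and 3.

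Genes that work with these receptors were read from 9 lists of known cofactors and targets. The lists follow textbook roles but were chosen with earlier results of these data known. Their counts stand beside the shares of all genes given above, which with 12 libraries were 6.71% at 3 h, 2.74% at 48 h, and 22.9% and 22.1% with time in wild type and in Chd5-/- labelled libraries, and with 9 libraries 52.5%, 47.2%, 76.0% and 79.0%. All-gene medians lay between -0.02 and 0.09 with 12 and between -0.0032 and 0.02 with 9.

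Of 14 coactivators, all tested, 0 passed between genotypes at either time with 12 libraries. Prmt1 fell in wild type with time (-1.57 ± 0.40 SE, adjusted p = 0.0201) and Ppargc1b in Chd5-/- labelled libraries (-1.21 ± 0.36, adjusted p = 0.0347). The list medians of the genotype differences were 0.44 at 3 h and -0.000258 at 48 h, and with 9 libraries 0.20 and 0.03. With 9 libraries 7 were higher and 4 lower at 3 h, and 4 and 2 at 48 h. Of 13 corepressors 1 passed, Hr, a corepressor and target of thyroid hormone receptors. Hr was at 14.4, 14.3 and 11.7 CPM in wild type against 4.3, 3.85 and 3.7 CPM in Chd5-/- labelled libraries at 3 h, and at 26.1, 51.3 and 24.1 and 24.2, 26.3 and 21 CPM at 48 h. It was lower in all 3 Chd5-/- labelled libraries at 3 h (-1.77 ± 0.30, adjusted p = 0.00595), and rose with time in wild type (1.33 ± 0.29, adjusted p = 0.0123) and in Chd5-/- labelled libraries (2.59 ± 0.31, adjusted p = 0.000574). Wild-type replicate 2 at 48 h was the highest. With 9 libraries 5 corepressors were higher and 5 lower at 3 h, and 2 and 6 at 48 h.

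Of 9 tested genes for thyroid hormone transport, conversion and response, 2 were higher and 3 lower at 3 h in Chd5-/- labelled libraries, with a median of 0.30. Lower were Hr, Mbp, a myelin gene at 2.13, 1.08 and 1.22 against 0.335, 0.126 and 0.228 CPM (-2.61 ± 0.51, adjusted p = 0.0126), and Thrsp, a gene of lipid synthesis, at 54.7, 15.7 and 17.6 CPM in wild type against 2.35, 2.08 and 2.22 CPM in Chd5-/- labelled libraries (-3.72 ± 0.52, adjusted p = 0.00183). Klf9 was higher, at 2.94, 12.2 and 11.5 CPM in wild type against 28.9, 32.1 and 31 CPM (1.77 ± 0.46, adjusted p = 0.0439). Nrgn was also higher, at 4.66, 1.08 and 0.832 against 18.9, 18.2 and 19.3 CPM (3.14 ± 0.78, adjusted p = 0.0378). Wild-type replicate 1 was the lowest of its group for Klf9 and the highest for Nrgn. At 48 h 0 passed. With 9 libraries 4 were higher and 4 lower at 3 h, with a median of 0.14, and 3 and 1 at 48 h. With time 1 rose and 2 fell in wild type, and 2 rose and 2 fell in Chd5-/- labelled libraries.

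Of 9 tested retinoic acid targets, 0 passed at 3 h, with a median of -0.44, and with 9 libraries 2 were higher and 4 lower at 3 h and 2 and 5 at 48 h. With 12 libraries, at 48 h Pdgfra was higher (2.56 ± 0.54, adjusted p = 0.0301) and Tgm2 lower (-2.11 ± 0.41, adjusted p = 0.0202). Pdgfra is also among the 9 markers of the oligodendrocyte lineage. Of these, Gpr17 was at 34.1 to 34.8 CPM in Chd5-/- labelled libraries at 48 h, against 0.539 to 0.977 CPM in wild type. The sums of the 9 overlapped, at 1276 to 2126 and 1425 to 2134 CPM. The part of cell type in the Pdgfra difference was not tested. With time and 9 libraries, 6 of the retinoic acid targets rose and 1 fell in wild type, and 6 rose and 3 fell in Chd5-/- labelled libraries. With 12 libraries 3 rose and 2 fell in wild type, and 3 rose and 1 fell in Chd5-/- labelled libraries. Cyp26b1, which breaks down retinoic acid, rose in both, from 0.203, 0.456 and 0.832 to 5.8, 1.28 and 5.57 CPM in wild type (3.01 ± 0.83, adjusted p = 0.0279), and from 0.335, 0 and 0.171 to 1.3, 0.601 and 1.89 CPM in Chd5-/- labelled libraries (2.82 ± 0.91, adjusted p = 0.0477). Dhrs3, which reduces retinaldehyde, had 0 reads in the 3 Chd5-/- labelled libraries at 3 h and measured 11.7, 0.0668 and 10.8 CPM at 48 h, with replicate 2 near 0.

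Of 11 tested PPAR targets, genes of fatty acid oxidation and storage, 0 passed between genotypes with 12 libraries, while with 9 libraries 5 were higher and 1 lower at 3 h and 4 and 3 at 48 h. With time 4 rose and 0 fell in wild type, with a median of 0.44, and 3 rose and 0 fell in Chd5-/- labelled libraries, with a median of 0.62. Cpt1b, for mitochondrial fatty acid import, rose in both (1.98 ± 0.33, adjusted p = 0.00451, and 1.71 ± 0.33, adjusted p = 0.00516). With 9 libraries 10 rose and 1 fell in each genotype, with medians of 1.16 and 0.81, where 37.6% of all genes rose in wild type and 38.9% in Chd5-/- labelled libraries. Of 12 targets of estrogen-related receptors, a list that includes Esrra and overlaps the PPAR list, 0 passed between genotypes with 12 libraries, with medians of 0.15 at 3 h and 0.37 at 48 h. With 9 libraries 10 were higher and 0 lower at 3 h, and 8 and 0 at 48 h, in Chd5-/- labelled libraries, with medians of 0.52 and 0.17, where 27.2% and 25.6% of all genes were higher. With time 1 rose and 4 fell in wild type, with Cycs, the cytochrome c gene, among those that fell (-2.20 ± 0.31, adjusted p = 0.00241). In Chd5-/- labelled libraries 1 rose and 1 fell. With 9 libraries 4 rose and 7 fell in wild type, and 3 rose and 9 fell in Chd5-/- labelled libraries.

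Of 13 tested glucocorticoid targets, 2 were higher and 1 lower at 3 h in Chd5-/- labelled libraries. With 9 libraries 5 were higher and 7 lower at 3 h, and 4 and 6 at 48 h. Cdkn1c and Klf9 were higher, and Tsc22d3 (GILZ) was lower (-0.97 ± 0.22, adjusted p = 0.0282). Cdkn1c, a cell cycle inhibitor, was near 0 in wild type, at 0.101, 0 and 0.111 CPM at 3 h and 0, 0 and 0.0568 CPM at 48 h, against 0.894, 0.568 and 1.02 and 0.743, 0.467 and 0.631 CPM in Chd5-/- labelled libraries (adjusted p = 0.0213 and 0.0223). No fold is given for it, since the wild-type libraries held so few reads. With time 2 rose and 1 fell in each genotype, with Fkbp5 falling in both (-2.16 ± 0.34 in wild type). With 9 libraries 7 rose and 3 fell in each genotype. Of 14 tested clock genes Hlf alone passed between genotypes with 12 libraries, at 3.85, 6.78 and 7.33 CPM in wild type against 15.1, 12.7 and 14.4 CPM in Chd5-/- labelled libraries at 3 h (1.23 ± 0.30, adjusted p = 0.0333), and higher again at 48 h (1.49 ± 0.30, adjusted p = 0.0241). With 9 libraries 5 clock genes were higher and 3 lower at 3 h, and 3 and 4 at 48 h. Cry1 fell with time in both, and Nfil3 in Chd5-/- labelled libraries.

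Of 4 tested genes of vitamin D metabolism and response, Cdkn1a passed between genotypes at 3 h (3.82 ± 0.29, adjusted p = 6.37e-05) and 48 h (3.46 ± 0.29, adjusted p = 0.000162). It is best known as a target of p53 and a cell cycle inhibitor. With 9 libraries 1 gene of this list was higher and 3 lower at 3 h, and 2 and 1 at 48 h.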

How the data were processed

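RNA of 12 libraries, 3 in each of 4 groups, was quantified by the authors with Salmon, per the submitters' processing notes; the sources used here name no version, index, strand setting or genome build. Per the file headers, the deposited tables hold an estimated count (NumReads), a TPM, and the Length and EffectiveLength in bases (other units) for each of 140658 transcripts. The library kit was stranded, per the labels.

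Transcripts were matched by identifier to GENCODE M21 (GRCm38). Of them 521 did not match and were left out, with 0.135% to 0.181% of a library's reads. Each gene's value is the sum of the deposited estimated counts of its transcripts, rounded to a whole number. TPM was used for the order of levels alone.

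Tests used edgeR 4.0.16 (R 4.3.3): filterByExpr (minimum count 10, minimum total 15), TMM scaling, 1 quasi-likelihood model with a mean per group over all 12 libraries, 5 two-sided contrasts, and Benjamini-Hochberg adjustment over 16043 genes. The procedure was tested on simulated data. CPM uses TMM-scaled library sizes, and CPM per kb divides each transcript's reads by its Length before summing. The floor of 3 counts covers counting error only, since without molecular identifiers reads may be PCR copies.

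The members and the 9 gene lists and 8 marker lists were chosen with earlier results of these data known. Of the tested members 1 is counted but not reported here on its own. From a list, up to 4 genes with the smallest p among those passing are named, and Klf9, named from the glucocorticoid list, also where the thyroid hormone list holds it. Alternatives were RLE factors, DESeq2 1.42.0, limma-voom 3.58.1, 2 other filters, a length offset, the groups compared alone, replicate blocks, and each library left out. The fits with 9 libraries and with blocks within each time were added after the data were seen.

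Replicate numbers come from the labels. Deviations of same-numbered libraries from their group means correlated at 0.261, 0.133 and 0.125 at 3 h and at 0.704, 0.788 and 0.705 at 48 h. Libraries of different numbers were not compared, and at 48 h replicate 2 stood apart in both genotypes. These values therefore cannot show that the numbers pair the genotypes. The blocks within each time took them as pairs. Across times the correlations lay between -0.0273 and 0.0199, and the numbers were not taken to pair.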

Additional observations from a re-analysis of the deposited data

Results flagged for a closer look

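Rara was flagged because its change with time had opposite signs in the genotypes: all 3 wild-type libraries at 48 h lay below all 3 at 3 h, and all 3 libraries labelled Chd5-/- at 48 h lay above all 3 at 3 h. The difference between both changes, on the log2 scale, was 1.00 (interaction, edgeR adjusted p = 0.407 with 12 libraries). With 9 libraries it was 0.59 (adjusted p = 0.0147).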

How the results depend on the processing

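With 12 libraries, 4, 1, 6, 10 and 0 members passed at 3 h, at 48 h, with time in wild type, with time in the libraries labelled Chd5-/- and in the interaction. At 3 h, 2 passed with no filter beyond 1 read, with the length offset, with a replicate block over all libraries and with limma-voom, 10 with DESeq2, and 0 in the 3 h libraries with a replicate block. At 48 h, 0 passed with no filter, with the length offset and in the 48 h libraries alone, and 2 there with a replicate block. With time in wild type, 0 passed in those libraries alone, with or without a replicate block, and in those labelled Chd5-/- alone 17 passed. DESeq2 called 1 member in the interaction, against 2.4% of all genes. For the genotype differences, no share of all genes was counted with DESeq2, limma-voom, other filters, the length offset or the all-library block. The same holds for the 48 h libraries alone without a block. Those counts are therefore not read as a result about the members. Without the 3 libraries that stood apart the counts were 21, 17, 24, 21 and 14. Leaving out each library gave 0 to 7, 0 to 2, 2 to 9, 3 to 16 and 0 to 0. The block changed no other call count by over 1.5 times. Causes were not tested. The fits of fewer groups also hold fewer libraries. Of 467 values for the 21 calls of single members, 337 kept direction and call, 130 kept direction and missed the threshold, and 0 reversed. RLE scaling and the length offset moved the all-gene median fold change by -0.0514 to 0.0461. The low reads of Esrrb and of the untested members limit what could be seen in them.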
